A study of Mus musculus with 4 samples.

Results

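The proteasome subunit genes were examined as a group on 4 microarrays, which measured mouse marrow cultures raised in the growth factor GM-CSF and then exposed to heme or its vehicle. The group was defined as 38 gene symbols in 5 sets: core alpha (Psma), core beta (Psmb1 to Psmb7), ATPase (Psmc), lid and base (Psmd and Adrm1), and immunoproteasome and activator (Psmb8 to Psmb10, Psme1 and Psme2). A gene was represented by its brightest probe set among those carrying that single symbol, which gave 37 of the 38 genes, out of 19938 genes represented in this way. Adrm1 was not analysed here. The group was chosen by the heme responses and genotype differences of these same arrays, so the values below describe it and test nothing. It has no numeric threshold, since every subunit on the list was kept whatever its value.

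The groups were marrow cultures of mice labelled Bach1 (-/-) with 40 µM heme, the same genotype with vehicle, Bach1 (+/+) wild type with heme, and wild type with vehicle, each with 1 array and all on the B6 background (the labels write the dose unit with a lower-case m). All 4 cultures had 6 days of 20 ng/ml GM-CSF, and RNA was taken 24 hours after treatment from the cells that adhered. The vehicle was 0.15 M NaCl with 10% NH4OH. The number, age and sex of the mice are not given in the sources used here, and whether the 2 treatments of a genotype came from the same marrow is not given either. A single array per group gives no spread between replicates, so differences are reported without p-values and without errors.

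The proteasome is the protease complex that degrades proteins tagged with ubiquitin in the cytosol and nucleus. Rings of alpha and beta subunits form its barrel-shaped core, in which some beta subunits carry the cutting sites. A cap, made of a ring of ATPases, further base subunits and a lid, binds ubiquitin, removes it and threads the substrate into the core. In immune cells and under interferon-gamma the cutting subunits Psmb5, Psmb6 and Psmb7 can be replaced by Psmb8, Psmb9 and Psmb10, and Psme1 and Psme2 form an alternative cap. Bach1 is a repressor that loses its hold on DNA when it binds heme. Transcription of the standard subunit genes is known to be raised by Nfe2l1 (also called NRF1) when the proteasome is overloaded or inhibited.

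The values were linear signals after RMA, a standard background correction, normalisation and probe summary for such arrays. Median signals of the 4 arrays lay between 30.4 and 31.4. Differences are given on the log2 scale, where 1 is 2-fold. A difference counted as a call at 2-fold or more, provided that the brightest array of the comparison had a signal of at least 30.96, the median over all probe sets and arrays. All 37 subunit genes passed this level filter in every comparison, so it removed none of them. The Bach1 probe set read 204 (heme) and 211 (vehicle) on the arrays labelled knockout, against 264 and 212 in wild type. Its position relative to the deleted part is unknown here, so it checks nothing about the labels, and these arrays are called labelled knockout. Macrophage markers had summed signals between 18398 and 19394 on the 4 arrays with 7 of 7 genes at level, a sum led by Lyz2, which read between 9990.3 and 10705. Single macrophage markers differed in both directions with heme in wild type, with Cd14 at 0.83 and Mertk at -0.61, and at 0.41 and -0.33 in the labelled knockout. Of the defining markers of other cells, 0 of 4 B, T and NK cell genes and 0 of 3 mast cell genes reached the level filter. Nor did Flt3 and Zbtb46 of the dendritic list or Klf1 of the erythroid list. Of the dendritic list 4 of 6 genes were at level, and of the neutrophil list 5 of 6, as described below. The erythroid gene Epor was at level only on the labelled knockout heme array, at 35.7. In a bulk culture, a change in the share of a cell type and a change in RNA per cell cannot be told apart.

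Genes of the standard proteasome were higher with heme in both genotypes, across core, ATPase ring, base and lid, while those of the immunoproteasome and its activator stayed close to their vehicle level. In the labelled knockout, 22 of 37 subunit genes were 2-fold or more higher with heme and 0 lower, where 1.2% and 0.452% of 10843 genes at level were. In wild type, 9 of 37 were higher and 0 lower, where 1.17% and 0.891% of 10772 genes were. At 1.5-fold, 30 subunit genes were higher in the labelled knockout and 26 in wild type, beside 5.03% and 4.99% of genes. At 3-fold, 2 were higher in the labelled knockout (Psmc2 and Psmc5) and 1 in wild type (Psma5), beside 0.184% and 0.297%. By any amount, 36 and 34 were higher, beside 52.4% and 48.6%. The median log2 difference over the 37 genes was 1.12 in the labelled knockout and 0.74 in wild type, beside 0.02 and -0.01 over all genes at level. Both heme arrays stood above both vehicle arrays at 32 of 37 subunit genes, as they did at 21.4% of 11155 genes. The exceptions were Psmd8, Psmb8, Psmb10, Psme1 and Psme2. These contrasts entered the choice of the group, so its counts are not evidence that the group stands apart.

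**Figure D1:**
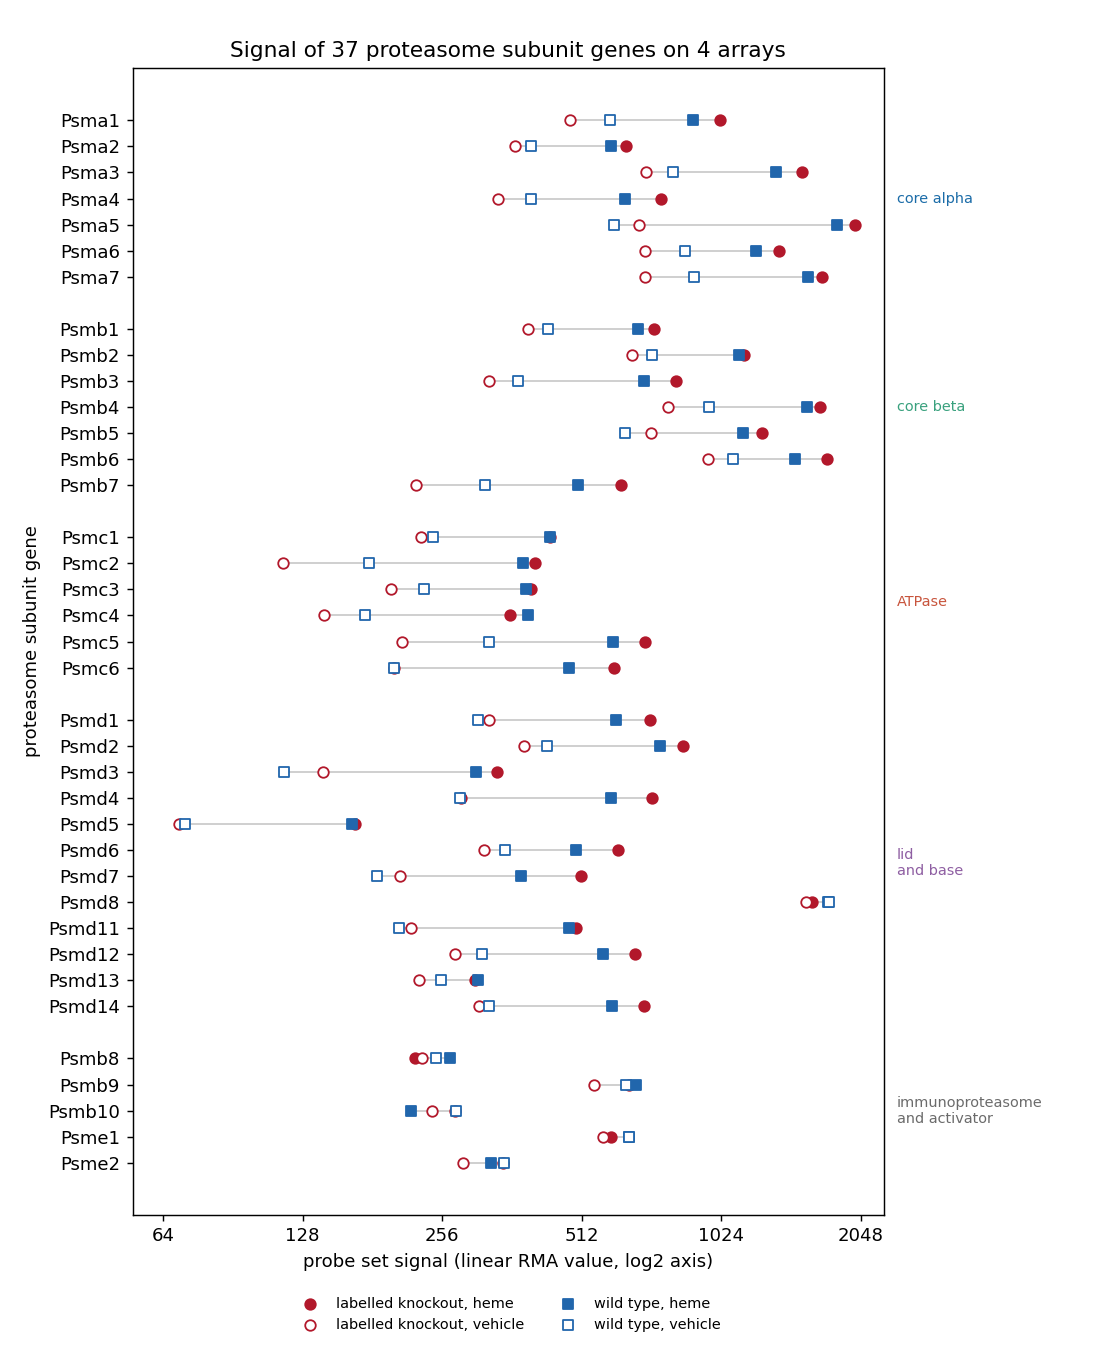
Signal of each subunit gene (rows) on the 4 arrays, as linear RMA values on a log2 axis. Filled symbols are heme and open symbols vehicle, circles the labelled knockout and squares wild type, and a grey line spans the 4 values; filled symbols lie to the right of open ones for all genes of the core and the ATPase ring, and all 4 lie together at Psmd8.

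The alpha subunits, which form the outer rings of the core and gate its entrance, were higher with heme at 7 of 7 genes in both genotypes. Psma5 read 1994 with heme and 680.2 in vehicle in the labelled knockout, and 1818 and 600.3 in wild type. Its difference was the largest of the alpha set in both genotypes, 2.93-fold and 3.03-fold, and it was the only alpha gene to reach 2-fold in wild type. Psma7 read 1686 with heme and 701 in vehicle in the labelled knockout, and 1579.7 and 896 in wild type. Psma4 read 761 and 339 in the labelled knockout, and 634 and 398 in wild type. At both genes both heme arrays lay above both vehicle arrays, and the labelled knockout vehicle array lay below wild-type vehicle. Psma2 had the smallest response of the set in the labelled knockout, with 639 under heme and 367 in vehicle, against 593 and 397 in wild type. The set median was 1.12 in the labelled knockout, where 5 of 7 genes reached 2-fold, and 0.67 in wild type, where 1 did. Psma1, Psma3 and Psma6 lay between 0.96 and 1.12 in the labelled knockout and between 0.51 and 0.74 in wild type.

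The standard beta subunits form the inner rings of the core and include its cutting sites. They were higher with heme at 7 of 7 genes in both genotypes, with a median of 0.90 and 3 genes at 2-fold in the labelled knockout, and a median of 0.67 and 0 genes in wild type. Psmb7, the subunit with trypsin-like activity, read 624 with heme and 225 in vehicle in the labelled knockout (2.77-fold), and 503 and 317 in wild type (1.59-fold). Psmb3, a structural beta subunit, read 819.5 and 323 in the labelled knockout, and 698 and 374 in wild type. Psmb4, also structural, read 1673 and 785 in the labelled knockout, and 1571 and 963 in wild type. At each of these genes the order from bright to dim was labelled knockout heme, wild-type heme, wild-type vehicle and labelled knockout vehicle. Psmb6, the caspase-like subunit, read 1733 with heme and 957 in vehicle in the labelled knockout, and 1482 and 1089 in wild type. Psmb5, the chymotrypsin-like subunit, read 1255 and 723 in the labelled knockout, and 1139 and 636 in wild type. Its response was 0.80 in the labelled knockout and 0.84 in wild type. Psmb1 and Psmb2 lay at 0.90 and 0.80 in the labelled knockout and at 0.65 and 0.62 in wild type.

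The ATPases unfold substrates and push them into the core, and as a set they had the highest median response in both genotypes, 1.45 in the labelled knockout and 0.995 in wild type. In wild type lid and base followed closely, at 0.93. Across the 32 genes outside the immunoproteasome and activator set, dimmer genes tended to have larger responses. Pearson's r of mean log2 signal with response was -0.38 in the labelled knockout and -0.46 in wild type. The part of signal level in the order of sets was not tested. Of the 6 genes, 5 reached 2-fold in the labelled knockout and 3 in wild type (Psmc2, Psmc4 and Psmc6). Psmc2 read 406 with heme and 116 in vehicle in the labelled knockout (3.5-fold), and 383 and 178 in wild type (2.15-fold). Psmc5 read 701 and 209 in the labelled knockout (3.35-fold), and 598 and 324 in wild type (1.85-fold). Psmc6 read 601 and 201 in the labelled knockout (2.99-fold), and 481 and 202 in wild type (2.38-fold). Psmc2 and Psmc5 stood at ranks 10 and 12 from the top among 10843 genes at level in the labelled knockout, and at ranks 94 and 178 among 10772 in wild type. At Psmc2 and Psmc5 labelled knockout vehicle lay below wild-type vehicle, and at Psmc6 the vehicle arrays were nearly equal. Psmc1 had the smallest response of the set in the labelled knockout, with 438 under heme and 230.3 in vehicle, against 438 and 245 in wild type. Psmc4 lay at 1.33 in the labelled knockout and 1.17 in wild type, and Psmc3 at 1.01 and 0.73.

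The remaining cap genes encode base subunits that hold the cap together or bind ubiquitin, and lid subunits, among them the enzyme that removes ubiquitin chains. Of these 12 genes, 9 were 2-fold or more higher with heme in the labelled knockout and 5 in wild type, with medians of 1.19 and 0.93. Psmd4, a ubiquitin receptor, read 727 with heme and 281 in vehicle in the labelled knockout, and 592 and 279.7 in wild type. Psmd7, the lid partner of the deubiquitinase, read 509.9 and 208 in the labelled knockout, and 379 and 186 in wild type. Psmd12, a lid scaffold subunit, read 668 and 272 in the labelled knockout, and 571 and 312 in wild type. Psmd14, the deubiquitinase itself, lay at 1.18 in the labelled knockout and 0.88 in wild type. In a split into base and lid made after the values were seen, the 3 base genes Psmd1, Psmd2 and Psmd4 had a median of 1.16 in the labelled knockout and 0.98 in wild type, and the 8 lid genes 1.19 and 0.87. Psmd5, an assembly chaperone of the base that belongs to neither, lay at 1.26 and 1.20.

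Psmd8 and Psmd13 stood apart from the other lid genes. Psmd8 read 1607 with heme and 1561 in vehicle in the labelled knockout, and 1745 and 1748 in wild type, so that its 4 values differed by genotype label more than by treatment. Psmd13, singled out after its values were seen, read 301 with heme and 228 in vehicle in the labelled knockout (1.32-fold), and 306 and 255 in wild type (1.2-fold). The other 6 lid genes lay between 0.96 and 1.30 in the labelled knockout and between 0.51 and 1.37 in wild type. Psmd8 had a single probe set, and which of its exons the probes cover is unknown here.

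**Figure D2:**
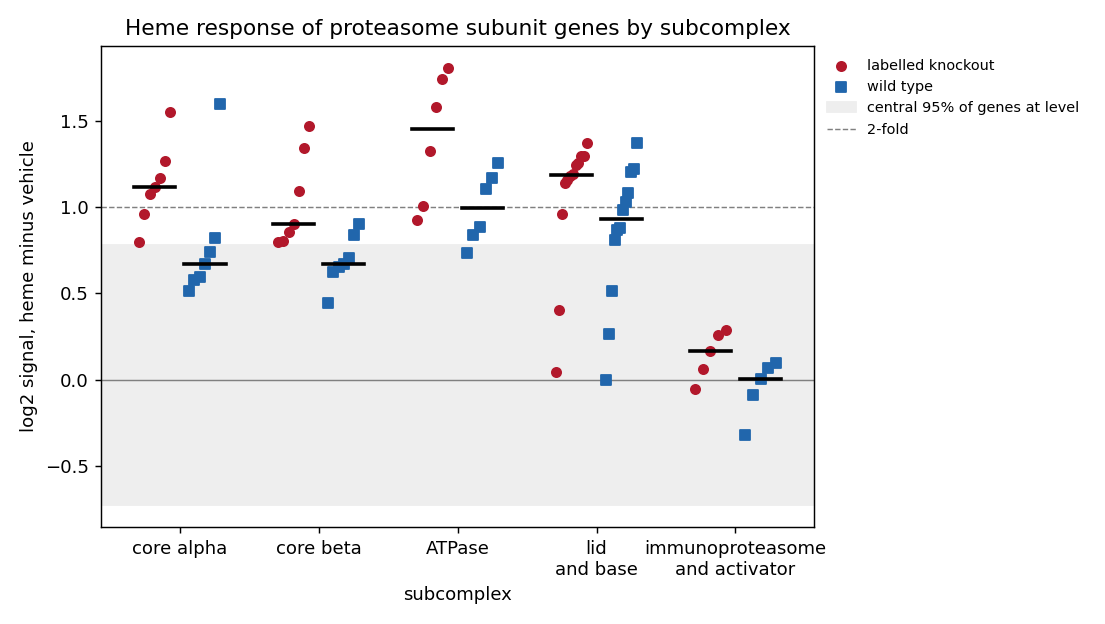
Log2 signal with heme minus vehicle for each subunit gene by subcomplex, circles for the labelled knockout and squares for wild type, with black bars at the set medians; the grey band spans the central 95% of genes at level in either genotype (from -0.73 to 0.78). The ATPase median is at 1.45 and 0.995, and the 5 immunoproteasome and activator genes lie inside the band.

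The immunoproteasome subunits and the activator subunits had 0 of 5 genes at 2-fold in either direction and in either genotype, and 0 of 5 were higher at 1.5-fold. At the shares of all genes given above (1.2% and 0.452% in the labelled knockout, 1.17% and 0.891% in wild type), a count of 0 among 5 genes does not set them apart from other genes. The set median was 0.16 in the labelled knockout and 0.00 in wild type. Psmb8 read 224 with heme and 232 in vehicle in the labelled knockout, and 266 and 249 in wild type. Psmb9 read 649 and 544 in the labelled knockout, and 671 and 639 in wild type. Psmb10 read 273 and 243 in the labelled knockout, and 219.8 and 275 in wild type. None of the 3 cutting subunits that can replace Psmb5, Psmb6 and Psmb7 thus differed by as much as 1.3-fold between heme and vehicle. Psme1, an activator subunit, read 593 with heme and 568 in vehicle in the labelled knockout, and 649 and 648 in wild type. Psme2, its partner, read 346 and 284 in the labelled knockout, and 327 and 347 in wild type. Labelled knockout vehicle lay below wild-type vehicle at all 5 genes, with log2 differences from -0.29 to -0.10.

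Set against its immune counterpart on the same arrays, each cutting subunit of the standard core had the larger heme response in both genotypes. The response of Psmb7 exceeded that of Psmb10 by 1.30 in the labelled knockout and by 0.99 in wild type. The response of Psmb5 exceeded that of Psmb8 by 0.85 and 0.74, and the response of Psmb6 exceeded that of Psmb9 by 0.60 and 0.38. These are differences of log2 differences, since levels of separate probe sets cannot be compared with each other.

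Upstream sequences are shown for 4 genes: the ATPase genes Psmc5 and Psmc6, which were among the 3 largest responses of their set in the labelled knockout, and the counterparts Psmb5 and Psmb8, of which Psmb5 had the smallest response of the core beta set there and Psmb8 lay near its vehicle level. Each is the stretch of 250 bases that ends just before the RefSeq start, on the gene's strand, from assembly GRCm38.p6. Psmc5 is at chr11:106255935-106256184 on the plus strand, Psmc6 at chr14:45329574-45329823 on the plus strand, Psmb5 at chr14:54617996-54618245 on the minus strand and Psmb8 at chr17:34197945-34198194 on the plus strand. Capitals mark a match, on either strand, to TGACNNNGC, the core of the antioxidant response element that Nfe2l1, Nfe2l2 and Bach1 bind with small Maf partners.
Psmc5: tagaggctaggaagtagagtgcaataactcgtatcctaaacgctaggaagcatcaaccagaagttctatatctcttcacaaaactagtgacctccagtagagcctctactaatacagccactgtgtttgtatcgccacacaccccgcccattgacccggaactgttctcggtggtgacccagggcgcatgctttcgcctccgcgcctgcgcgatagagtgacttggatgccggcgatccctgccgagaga
Psmc6: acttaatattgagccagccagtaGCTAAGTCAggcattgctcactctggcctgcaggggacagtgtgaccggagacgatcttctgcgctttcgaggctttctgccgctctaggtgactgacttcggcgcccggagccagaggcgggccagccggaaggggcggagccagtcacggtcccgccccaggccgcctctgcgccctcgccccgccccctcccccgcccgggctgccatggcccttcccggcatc
Psmb5: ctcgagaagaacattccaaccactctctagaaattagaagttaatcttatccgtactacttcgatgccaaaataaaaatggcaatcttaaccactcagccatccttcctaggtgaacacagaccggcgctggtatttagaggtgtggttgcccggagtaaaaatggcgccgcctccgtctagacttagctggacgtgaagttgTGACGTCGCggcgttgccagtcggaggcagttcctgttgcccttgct
Psmb8: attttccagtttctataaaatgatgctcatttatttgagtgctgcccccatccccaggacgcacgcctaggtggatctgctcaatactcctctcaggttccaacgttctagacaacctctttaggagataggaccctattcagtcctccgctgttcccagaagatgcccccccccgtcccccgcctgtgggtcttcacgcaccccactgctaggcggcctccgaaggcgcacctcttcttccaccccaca

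The stretches of Psmc6 and Psmb5 hold the motif and those of Psmc5 and Psmb8 do not. The set of upstream sequences used here had an entry for 31 of the 37 subunit genes, and 4 of them held a match: Psmb5, Psmb6, Psmc6 and Psmd12. That is 12.9%, near the 11.5% of 27025 genes in the whole set of sequences whose upstream stretch holds one. In the direction of the gene, the match was TGACGTCGC in Psmb5, beginning 47 bases before the start, and TGACGGAGC in Psmb6, beginning 9 bases before it. Both also contain TGACG, the start of the cAMP response element. In Psmc6 and Psmd12 the match lies on the opposite strand, beginning 227 and 247 bases before the start. The responses of these 4 genes in the labelled knockout ranged from 0.80 at Psmb5 to 1.58 at Psmc6, and Psmc5, at 1.74, had no match in its stretch. A match is a description of letters, and its absence speaks only of this window.

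The heme responses of the labelled knockout and wild type were then set side by side, which asks whether they differ. With 1 array per group, a difference by genotype cannot be told from a difference between cultures. The 2 responses share no array. The response was larger in the labelled knockout at 32 of 37 subunit genes, beside 54.4% of genes at level, and larger in wild type at Psma5, Psmb5, Psmd3, Psmd11 and Psmb8. The difference of responses, labelled knockout minus wild type, had a median of 0.29 over the group and 0.03 over 11155 genes at level. No subunit gene reached a 2-fold difference of responses in either direction, where 1.17% and 0.879% of genes at level did. The largest differences were 0.86 at Psmc5, 0.80 at Psmb7 and 0.70 at Psmc2, and these 3 genes passed 1.5-fold, where 6.27% of genes did. Set medians of the difference were 0.45 for core alpha, 0.39 for core beta, 0.30 for the ATPases, 0.22 for lid and base and 0.19 for immunoproteasome and activator. Genes with a larger response in one genotype tended to have a larger one in the other: across the 37 genes Pearson's r was 0.87 and Spearman's rho 0.84, and across the 32 genes without the immunoproteasome and activator set they were 0.76 and 0.76. Within each genotype all points come from the same pair of arrays, and across 10460 genes at level r was 0.46.

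**Figure D3:**
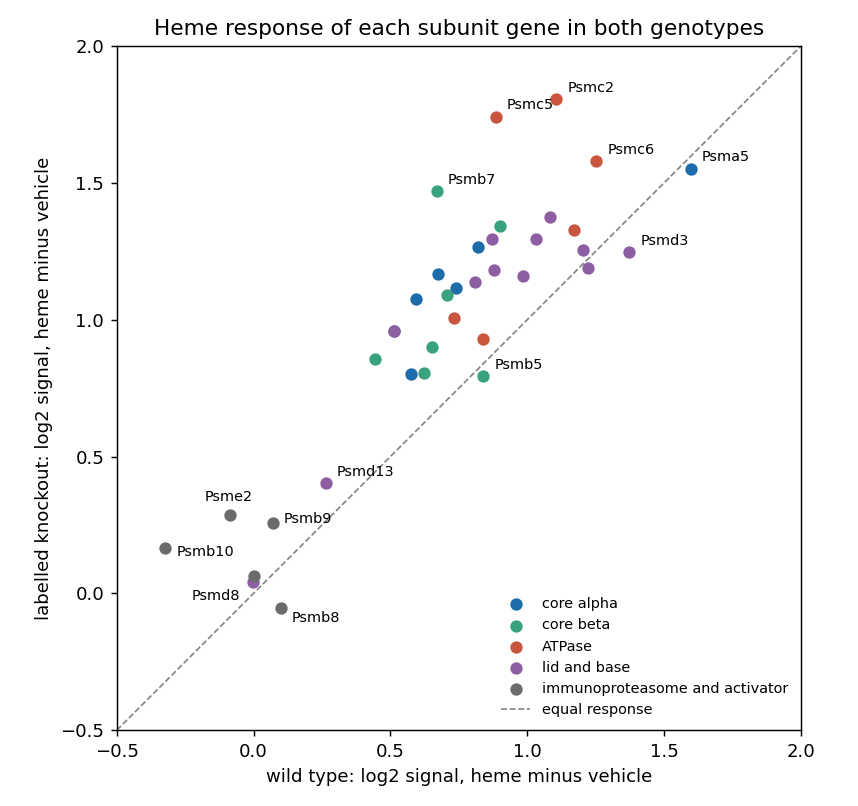
Heme response of each subunit gene, as log2 signal with heme minus vehicle, in the labelled knockout (vertical) against wild type (horizontal), coloured by subcomplex, with the line of equal response. Of the 37 genes, 32 lie above the line, with Psmc5, Psmb7 and Psmc2 farthest from it, and the immunoproteasome and activator genes and Psmd8 lie near the origin.

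Each treatment was then taken alone, setting the labelled knockout against wild type. These comparisons use the same arrays as the heme responses, so their values are given side by side and not as separate support. In vehicle, 30 of 37 subunit genes were lower in the labelled knockout by some amount, where 52.5% of 10859 genes at level were, and the median difference was -0.17 against -0.02 over all genes at level. None was 2-fold higher or lower, where 0.525% and 1.14% of genes were. Psmc5 (-0.63) and Psmc2 (-0.62) had the largest differences, and these 2 genes were lower at 1.5-fold, where 4.31% of genes were. Psmb7 followed at -0.49. All 6 ATPase genes were lower or equal in labelled knockout vehicle, from -0.63 to -0.00. Of the lid and base genes, 5 of 12 were higher there, with Psmd3 at 0.28 in front.

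With heme in both cultures, 31 of 37 subunit genes were higher in the labelled knockout by some amount, where 52% of 10790 genes at level were, and the median was 0.14 against 0.01 over all genes at level. None was 2-fold higher or lower, where 0.519% and 0.973% of genes were. Psmd7 had the largest difference, 0.43, and Psmb8 the lowest, -0.25. The labelled knockout heme array was the brightest of the 4 at 29 of 37 subunit genes, where it was at 25.9% of 11155 genes, and the labelled knockout vehicle array was the dimmest at 28, where it was at 27.2%. The full order of labelled knockout heme, wild-type heme, wild-type vehicle and labelled knockout vehicle held at 22 of 37 genes, against 5.55% of genes at level. Among these 22 were 6 of 7 core alpha, 6 of 7 core beta and 5 of 6 ATPase genes, 5 of 12 lid and base genes and 0 of 5 immunoproteasome and activator genes. At Psmc2, Psmc5 and Psmb7 the difference between genotypes was larger in size in vehicle than with heme.

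**Figure D4:**
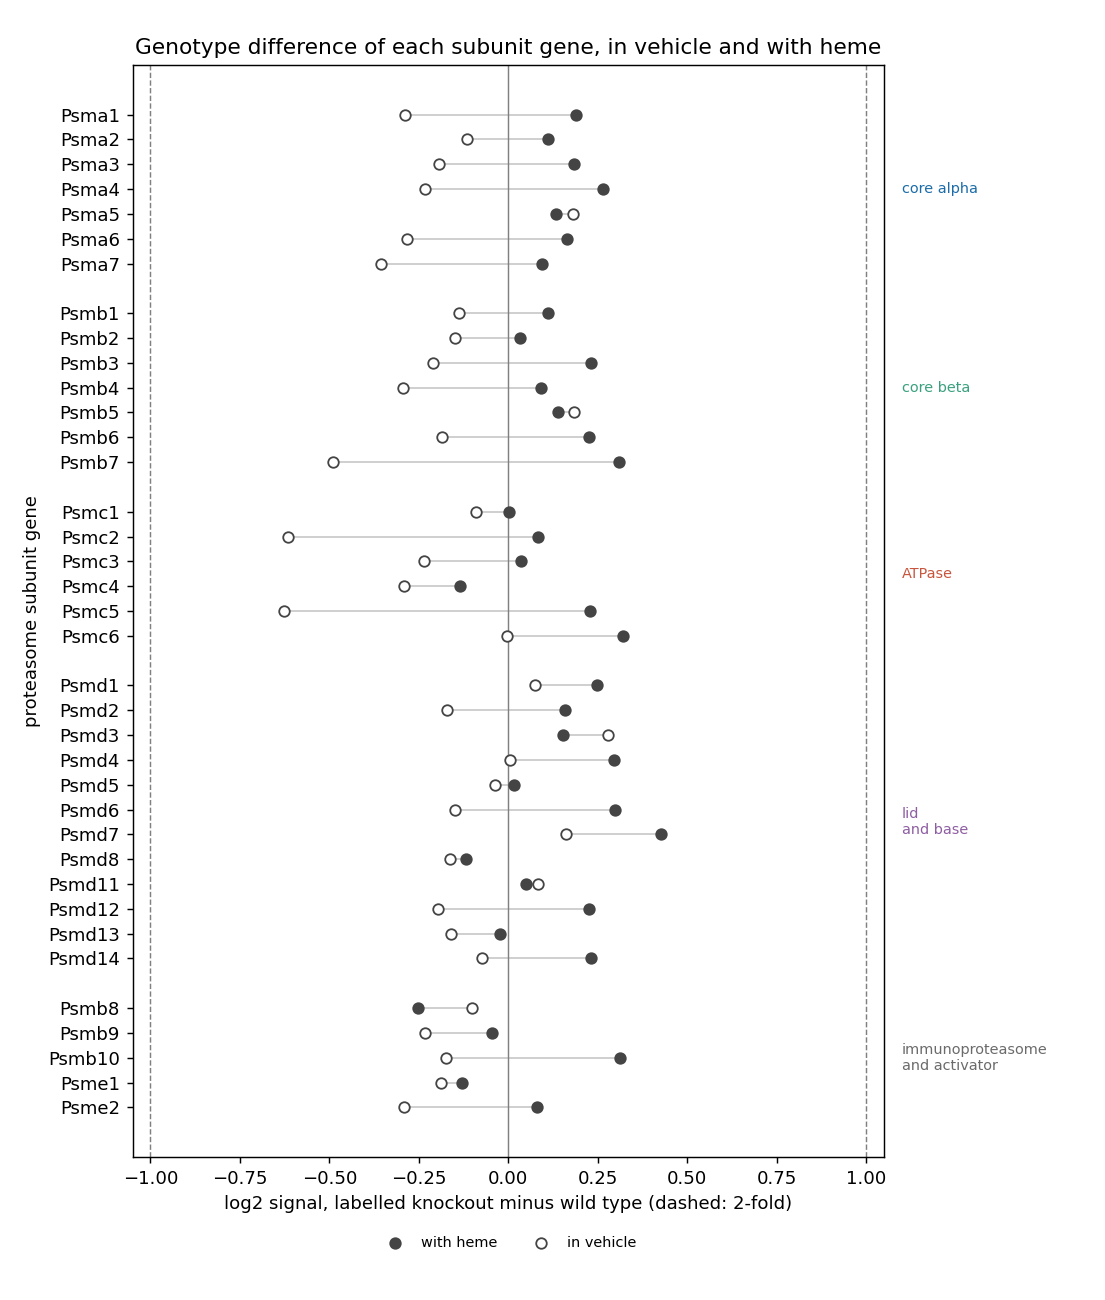
Log2 signal of the labelled knockout minus wild type for each subunit gene, with heme (filled) and in vehicle (open), joined by a grey line, with dashed lines at 2-fold. All points lie inside the dashed lines; open circles lie left of 0 at 30 of 37 genes and filled circles right of 0 at 31.

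Genes that build or serve the proteasome were taken from lists of related genes. Of 7 listed assembly factors, 0 reached 2-fold with heme in either genotype. Of genes at level, 1.2% were 2-fold higher in the labelled knockout and 1.17% in wild type. A count of 0 among 7 therefore does not set the list apart. The list median was 0.03 in the labelled knockout and -0.01 in wild type. Pomp, the factor that matures the core and is itself then degraded, had the largest response of the list. It read 1158 under heme and 617 in vehicle in the labelled knockout, and 1109 and 692 in wild type. The core assembly chaperones Psmg1, Psmg2, Psmg3 and Psmg4 lay between -0.61 and 0.51 in the labelled knockout and between -0.30 and 0.05 in wild type. The response of Pomp lay within the range of the core beta set in both genotypes. Psmd9 and Psmd10, chaperones of the ATPase ring, lay at 0.03 and 0.22 in the labelled knockout and at 0.55 and -0.06 in wild type. Psmd5, also an assembly chaperone, was counted with lid and base and is not on this list. It was 2.39-fold higher with heme in the labelled knockout and 2.3-fold in wild type.

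Of 12 other subunits and regulators, 10 were at level and 0 reached 2-fold in either genotype. Beside the 1.2% and 1.17% of genes at level that were 2-fold higher, this count does not set them apart. Medians over all 12 were 0.20 in the labelled knockout and 0.15 in wild type. Psma8 and Psmb11, which belong to the proteasomes of testis and thymus, were below the level filter on all 4 arrays. The response was largest at Txnl1, a thioredoxin-like protein bound to the cap (0.92 in the labelled knockout, 0.69 in wild type), Ecpas, which links core and cap (0.73 and 0.94), and Psme4, a large alternative cap (0.67 and 0.63). These 3 genes were the ones past 1.5-fold in each genotype, where 5.03% and 4.99% of genes at level were higher by that much. The small lid subunit gene Sem1 (-0.17 and -0.04), the cap deubiquitinase Uchl5 (-0.01 and -0.06) and the nuclear activator Psme3 (-0.16 and 0.21) lay near 0. The genes of this and the preceding list other than those past 2-fold were picked for naming after their values were seen.

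The list around Nfe2l1 had medians of 0.30 in the labelled knockout and 0.32 in wild type. With heme, 1 of 7 genes was 2-fold higher in the labelled knockout and 0 in wild type, where 1.2% and 1.17% of genes at level were. That gene was Nploc4, a ubiquitin-binding cofactor of the ATPase Vcp, which read 306 with heme and 139.5 in vehicle in the labelled knockout, and 301 and 158 in wild type. Its partners Vcp and Ufd1 had responses of 0.92 and 0.75 in the labelled knockout and of 0.47 and 0.86 in wild type. This trio extracts ubiquitin-tagged proteins from membranes and complexes. Nfe2l1 itself read 324 with heme and 263 in vehicle in the labelled knockout, and 311 and 272 in wild type. Its activity is known to be set largely by cleavage and stability of the protein, which an mRNA array does not measure. Nfe2l2 read 1132 and 1087 in the labelled knockout, and 1282 and 1497 in wild type. Of the ubiquitin supply and shuttle list, 5 of 12 genes were measured and 0 reached 2-fold. Beside the same shares of genes at level, this count does not set them apart. Rad23b, which carries ubiquitin-tagged proteins to the cap, had the largest response at 0.90 and 0.70.

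**Figure D5:**
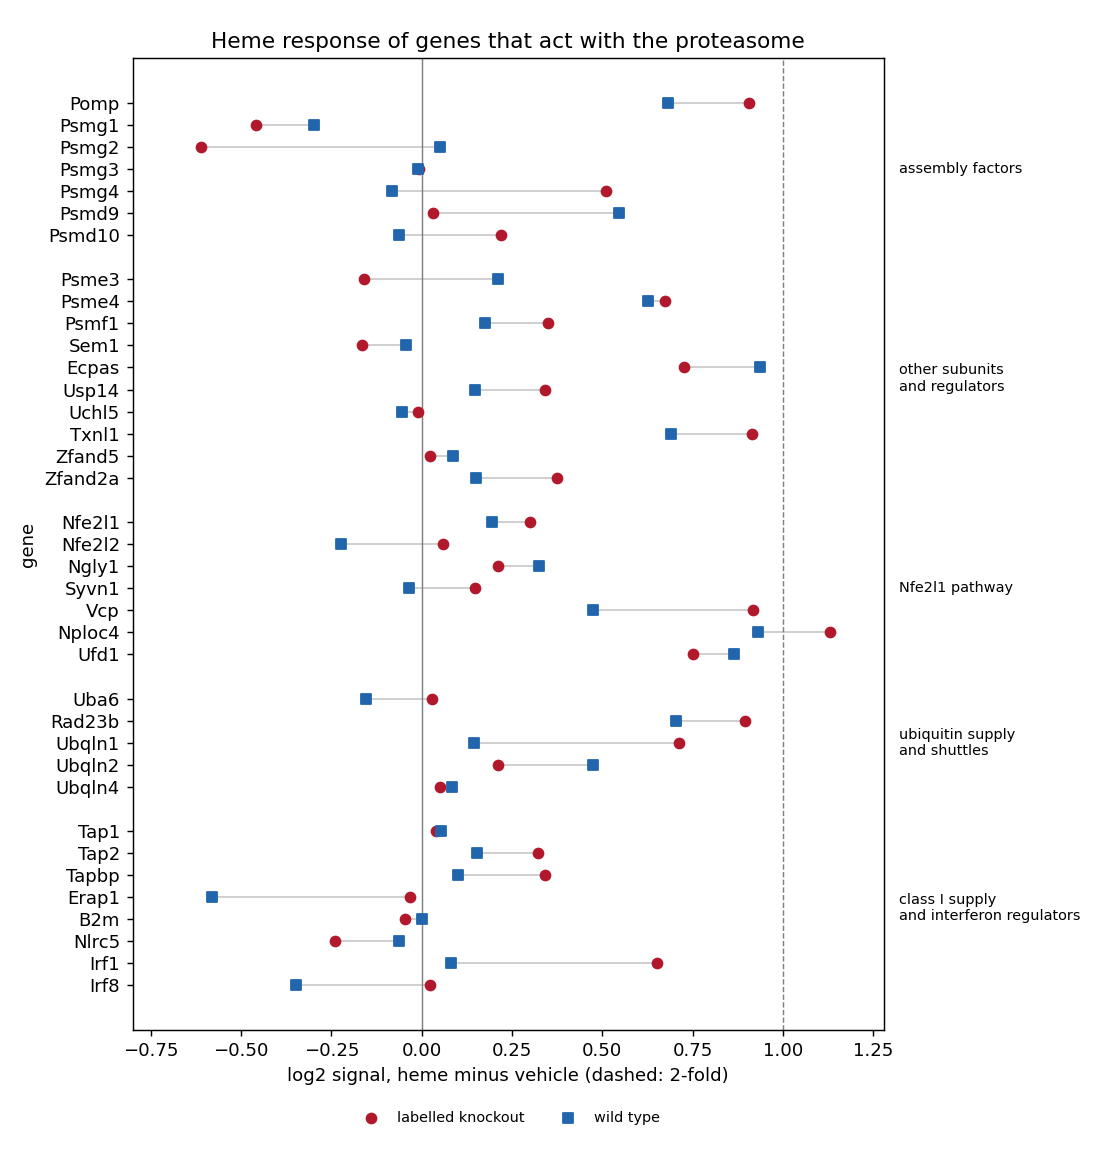
Heme response, as log2 signal with heme minus vehicle, of related genes at level in 5 lists (rows), circles for the labelled knockout and squares for wild type, with a dashed line at 2-fold. Pomp, Psme4, Ecpas, Txnl1, Nploc4, Ufd1 and Rad23b lie to the right of 0.6 in both genotypes. Psmg1, Sem1, Uchl5, Erap1, Nlrc5 and, only just, Psmg3 lie left of 0 in both.

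The genes that supply peptides to MHC class I and regulate the immunoproteasome had 0 of 8 at 2-fold with heme in either genotype. Beside the 1.2% and 1.17% of genes at level that were 2-fold higher, this count does not set them apart. Their medians were 0.03 in both genotypes. Tap1, a peptide transporter subunit gene that lies between Psmb9 and Psmb8 on chromosome 17, read 141 with heme and 137 in vehicle in the labelled knockout, and 143 and 138 in wild type. Tap2, on the other side of Psmb8, lay at 0.32 and 0.15. Irf1, an activator of the immunoproteasome genes, lay at 0.65 and 0.08. Erap1 lay at -0.03 in the labelled knockout and -0.58 in wild type, the largest response in size of the list in wild type. Tap1, Tap2, Psmb8 and Psmb9 thus each lay within 1.3-fold of their vehicle level in both genotypes.

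Antioxidant genes controlled by Nfe2l2 were higher with heme at 10 of 10 genes in both genotypes, beside 52.4% and 48.6% of genes at level. At 2-fold, 4 were higher in the labelled knockout and 5 in wild type, beside 1.2% and 1.17%. Their median was 0.80 in the labelled knockout and 1.24 in wild type. Gclm, a subunit of the enzyme that starts glutathione synthesis, read 820.2 with heme and 326 in vehicle in the labelled knockout, and 777 and 188 in wild type. Gclc, its catalytic partner, read 119 and 54.1 in the labelled knockout, and 105 and 54.1 in wild type. The cystine importer Slc7a11 read 381 and 222 in the labelled knockout, and 799 and 277 in wild type. Of this list, 5 of 10 genes had the larger response in the labelled knockout and 5 in wild type. That is near the share of all genes at level with the larger response in the labelled knockout, 54.4%. Hmox1, the heme-degrading enzyme, read 10330.5 with heme and 9047 in vehicle in the labelled knockout, and 9881 and 1827 in wild type. At Psmc2 and Psmc5 the labelled knockout vehicle array was the dimmest of the 4, and at Hmox1 wild-type vehicle was. Hmox1 does not stand for its list in this. Of the 10 antioxidant genes, 6 were lower in labelled knockout vehicle than in wild-type vehicle and 4 higher, beside 52.5% of genes at level that were lower. The quinone reductase gene Nqo1 read 41.7 with heme and 14.8 in vehicle in the labelled knockout, and 69.0 and 18.7 in wild type. The malic enzyme gene Me1 read 160.0 and 15.9 in the labelled knockout, and 111 and 14.6 in wild type. Neither reached the level filter in vehicle.

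Markers of other cells moved with the treatments. Neutrophil markers, 5 of 6 at level, had summed signals of 8634 with heme and 6350 in vehicle in the labelled knockout, and 11243 and 8374 in wild type. The neutrophil gene Elane stayed below the level filter. Dendritic markers, 4 of 6 at level, summed to 1994 and 2578 in the labelled knockout, and 5392 and 6954 in wild type. With heme the neutrophil sum was higher and the dendritic sum lower in both genotypes, and both sums were lower in the labelled knockout in each treatment. The sums rest on the brightest probe sets, S100a8 and S100a9 for neutrophils and Cd74, H2-Ab1 and Itgax for dendritic cells. Itgax read 547 with heme and 972 in vehicle in the labelled knockout, and 741 and 1340 in wild type. Its heme response was -0.83 and -0.86, the largest in size of the dendritic markers in both genotypes. Some single markers went other ways than the sums. Cxcr2, a neutrophil chemokine receptor, read 89.6 with heme and 77.9 in vehicle in the labelled knockout, and 209 and 68.7 in wild type. Mpo, a granule enzyme, read 36.6 with heme and 41.9 in vehicle in the labelled knockout, and 28.9 and 26.3 in wild type. Its heme response was -0.19 in the labelled knockout and 0.14 in wild type. In vehicle it was higher in the labelled knockout by 0.67. Both wild-type values lay below the level filter and the others not far above it, so these differences are weakly measured. Ccr7, a chemokine receptor of migrating dendritic cells, read 44.5 with heme and 35.2 in vehicle in the labelled knockout, and 119 and 90.7 in wild type, so that it was higher with heme where the dendritic sum was lower. Cd74, which escorts MHC class II, read 829 and 877 in the labelled knockout, and 2879 and 3399 in wild type. The class II gene H2-Ab1 read 538 and 656 in the labelled knockout, and 1607 and 2088 in wild type. These 2 genes differed more between genotypes than between treatments. Their part in the proteasome values was not tested.

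Where a subunit gene had several probe sets, they gave like responses. For Psma3, 3 probe sets lay between 1.04 and 1.12 in the labelled knockout and between 0.71 and 0.75 in wild type. Both probe sets of Psma5 passed 2-fold in both genotypes. Those of Psmb3 differed most, at 1.34 and 1.65 in the labelled knockout and at 0.90 and 1.33 in wild type, so that in wild type the dimmer one passed 2-fold. Those of Psmc1 lay at 0.93 and 1.17 in the labelled knockout and at 0.84 and 0.92 in wild type, and those of Psmd2 were closer to each other than those of Psmb3. Some of these probe sets may lie on processed copies of the genes, which the annotation does not separate, so values of these 5 genes are uncertain to that extent.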

How the data were processed

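Gene expression was measured on microarrays from 4 mouse marrow cultures, 1 per group. Per the labels, RNA was isolated on RNeasy columns, biotin-labelled cRNA was made with an Ovation PicoSL kit, and the authors deposited linear intensity values after RMA (submitters' processing notes). The series' design text describes sorted progenitors and other programs, so the sample labels were followed. The files hold no detection call, genome build or replicate, so how far a signal lies above background is unknown and precision is limited by the number of arrays.

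Of 35556 probe sets, 21789 carried a single gene symbol and 1621 several, and 12146 are not listed in the annotation used here. Of the single symbols, 21698 were found in the RefSeq table of GRCm38.p6 by Entrez number. The brightest probe set per gene (mean log2) was kept, and signals were taken to log2 with no scaling added. No model was fitted. Calls need 2-fold and the level filter. The members and lists were chosen with earlier results of these data known.

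Values on 4 arrays are given for the 3 members of each set with the largest and the 1 with the smallest response in the labelled knockout, for Psmb5 to Psmb10, Psme1 and Psme2, and for related and marker genes past 2-fold between arrays of a pair. Other genes outside this rule (such as Pomp, Nfe2l1, Nfe2l2, Tap1 and Psmd13) were named after their values were seen. Calling was tested on simulated data. The size of the simulated noise was set by hand, so this checked the code and not the precision of calls on these arrays. Alternatives were fold rules of 1.5 and 3, 32 added to each signal, repeated quantile normalization, lowess centring, the mean of probe sets, the mean over members, dropping the level filter and raising it to the 75th percentile. Python 3.11.15, numpy 2.4.6, pandas 2.3.3, scipy 1.17.1, statsmodels 0.14.6 and matplotlib 3.10.9 were used.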

Additional observations from a re-analysis of the deposited data

Results flagged for a closer look

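At 4 subunit genes the heme response had opposite signs in the 2 genotypes, each on 1 array per group, and the difference was not tested. Labelled knockout minus wild type, it was 0.49 at Psmb10 (responses of 0.16 and -0.32), 0.37 at Psme2 (0.29 and -0.09), -0.15 at Psmb8 (-0.05 and 0.10) and 0.0436 at Psmd8 (0.04 and -0.00). All 4 responses in each genotype were below 1.3-fold.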

How the results depend on the processing

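Of 230 medians and counts recomputed under the alternatives, 217 stayed within 0.1 on the log2 scale or within 1.5 times, 13 moved and 0 reversed. This tally is lenient: a count could not reverse, and most counts were 0 in the main setting. A median that shifted by under 0.1 counted as unmoved even if its sign changed. The wild-type heme response of immunoproteasome and activator went from 0.003 to -0.01 with repeated quantile normalization and to -0.05 as a mean. With a 3-fold rule, 2 subunit genes were higher with heme in the labelled knockout and 1 in wild type, and with a 1.5-fold rule 26 were higher in wild type. The 1.5-fold rule also gave 3 genes with a larger response in the labelled knockout and 2 genes lower in labelled knockout vehicle, where the 2-fold rule gave 0. With 32 added to each signal, the labelled knockout response had a median of 1.30 for the ATPases and 1.08 for lid and base. The same setting left 6 subunit genes 2-fold higher with heme in wild type instead of 9, which is within 1.5 times and was counted as unmoved. As a mean over members, the labelled knockout response was 0.995 for the whole group, 1.04 for core beta and 1.04 for lid and base, and the wild-type response of core alpha was 0.79. The mean difference of responses was 0.35 for core alpha, 0.35 for core beta and 0.40 for the ATPases. By mean the ATPases thus had the largest difference of responses, and by median core alpha did. Small group medians shrank while counted as unmoved. In vehicle, labelled knockout minus wild type was -0.12 with repeated quantile normalization and -0.11 with lowess centring, from -0.17. The median difference of responses was 0.24 and 0.23 under these settings, from 0.29. Each of 740 recomputed values of single genes stayed within 1.5-fold of its value. No paired analysis was possible because each group held 1 array, so that no replicate number could serve as a block. No replicate could be left out for the same reason, and no signal over background was given, so weak probe sets could not be set apart.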

Other observations

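One probe set carried the symbols Psme2b and Psme2 together and was left out of the group. It read 236 with heme and 256 in vehicle in the labelled knockout, and 222 and 264 in wild type, a response of -0.11 and -0.26.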
